A study of Rattus with 27 samples.

Results

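Gene expression in the spleen was compared between 3 arrays labelled vehicle (replicates 2, 4 and 5) and 3 arrays labelled sham (replicates 3, 4 and 5), which are 6 of the 27 arrays of a study of experimental stroke in the rat. The members are all probes that carry exactly 1 gene symbol, with the probe of highest mean over the 27 arrays standing for each gene, which gave 14506 genes. All animals were Sprague Dawley rats sampled 6 hours after surgery. Sham rats were anaesthetised and had the vessels exposed only, whereas the other groups underwent middle cerebral artery occlusion (MCAO), in which a main artery of the brain is blocked. The titles call those groups vehicle and model, while the protocol has a vehicle control and, in place of a model group, rats dosed with 25 mg/kg of YJ (the title of the series speaks of Yiqi Jiedu Formulae). The title words and the description codes do not settle which operated group received YJ, so the vehicle-labelled rats are described by their title alone. Spleens were homogenised whole, and RNA from 3 rats per group was hybridised to Affymetrix rat arrays, 1 array per rat and tissue.

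The spleen holds lymphoid white pulp, where B and T cells meet antigen, and red pulp, where macrophages clear old red cells and where, in rodents, red cells are also made. The heat shock response is a cell's reaction to heat, ischaemia or other protein damage: the factor Hsf1 switches on chaperones such as Hsp90 and Hsp70 with the co-chaperones that hand them their client proteins. A parallel response in the endoplasmic reticulum (ER) raises chaperones that fold secreted proteins, and a small set of RNA-binding proteins, among them Cirbp and Rbm3, is known to increase in mild cold and to decrease in warmth. In a homogenate, fewer cells of a type and less RNA per cell cannot be told apart.

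Values are log2 intensities, so that a difference of 1 is a 2-fold change, and arrays are listed in the order of their replicate numbers. Array medians over the genes lay between 5.62 and 5.82. Vehicle-labelled arrays correlated with each other at r = 0.975 to 0.986 across genes, against 0.989 to 0.992 among sham arrays, so the vehicle-labelled group was the more variable. Between vehicle-labelled and sham arrays r was 0.983 to 0.988, so vehicle-labelled arrays were no more like each other than like sham. Model replicate 2 and vehicle replicate 2 had the highest medians, 5.82 and 5.75. The lowest intensities were raised in vehicle replicates 2 and 4 and in model replicate 2. Their 10th percentiles were 3.17, 3.11 and 3.13, against 2.95 to 3.0 in the sham arrays and 2.97 in vehicle replicate 5. Defining spleen markers were measured for 10 genes. For 6 of these (Ms4a1, Spic, Cd5l, Vcam1, Tlx1 and Cxcl13) the lowest of the 6 spleen arrays lay above every white blood cell and brain array. The T cell genes Cd3e and Cd8a and the iron exporter Slc40a1 had higher means in white blood cells (9.55, 8.94 and 11.34) than in spleen (8.41, 7.85 and 10.65). Nkx2-5 overlapped, at 5.23 to 6.21 in spleen and 5.0 to 5.48 in white blood cells. Tlx1, a factor needed to form the spleen, read 6.06 to 6.91 here and 4.63 to 5.14 in white blood cells.

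Cytosolic chaperones of the Hsp90 system were higher in the spleens labelled vehicle than in those labelled sham, and the cold-inducible RNA-binding gene Cirbp was lower. With limma fitted to the 9 spleen arrays, 7 of 14506 genes (0.0483%) passed a Benjamini-Hochberg adjusted p under 0.05. Dnaja1, Chordc1, Fkbp4, Cacybp, Hsp90aa1 and Manf rose (6 genes, 0.0414%), by 1.88 to 2.97 times, and Cirbp alone fell (1 gene, 0.00689%). At an unadjusted p under 0.05, 695 genes were higher (4.79%) and 662 lower (4.56%). The median difference over all genes was 0.04.

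Dnaja1, an Hsp40 protein that delivers clients to Hsp70, showed the largest rise among the 7 called genes. Its values were 9.07, 8.96 and 9.10 in the sham arrays and 10.53, 10.58 and 10.73 in the vehicle-labelled arrays. The groups were far apart for their spread, and the difference was 1.57 ± 0.232 (SE, n = 3 and 3), or 2.97-fold, with a limma adjusted p of 0.041. Chordc1, an Hsp90-binding protein also known as morgana, read 7.79, 7.60 and 7.73 against 9.15, 9.04 and 9.61. It rose by 1.56 ± 0.236 (adjusted p = 0.044, limma), with vehicle replicate 5 the highest and no overlap.

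Hsp90aa1 encodes the stress-inducible cytosolic Hsp90 itself. It read 10.31, 10.37 and 10.41 in sham and 11.63, 11.47 and 11.67 in the vehicle-labelled spleens. All 3 operated values were far above the narrow sham range, and the rise was 1.23 ± 0.154 (2.34-fold, limma adjusted p = 0.022). Fkbp4, the immunophilin FKBP52 that sits in steroid receptor complexes with Hsp90, read 7.88, 7.67 and 7.93 in sham and 9.18, 9.04 and 9.33 in vehicle-labelled arrays. Its rise was 1.36 ± 0.186 with an adjusted p of 0.023 (limma). Cacybp, which binds calcyclin and Siah1 and shares the Hsp90-binding CS domain, went from 8.98, 8.95 and 9.20 to 10.46, 10.20 and 10.43. The difference of 1.32 ± 0.176 had an adjusted p of 0.022 in the same limma fit, and no vehicle-labelled value came near the sham range.

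Manf is a secreted ER-resident protein induced when proteins misfold in the ER. Its values were 7.93, 7.95 and 8.0 in sham and 8.87, 8.80 and 8.94 in the vehicle-labelled arrays, the tightest pair of groups among the 7 genes. It rose by 0.91 ± 0.121, or 1.88-fold (limma adjusted p = 0.022). Cirbp read 7.30, 7.22 and 7.37 in sham against 6.23, 6.49 and 6.02. It fell by 1.05 ± 0.137 on the log2 scale, a 2.07-fold lower level (limma adjusted p = 0.022), and the groups did not overlap although the vehicle-labelled arrays were the more scattered.

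**Figure D1:**
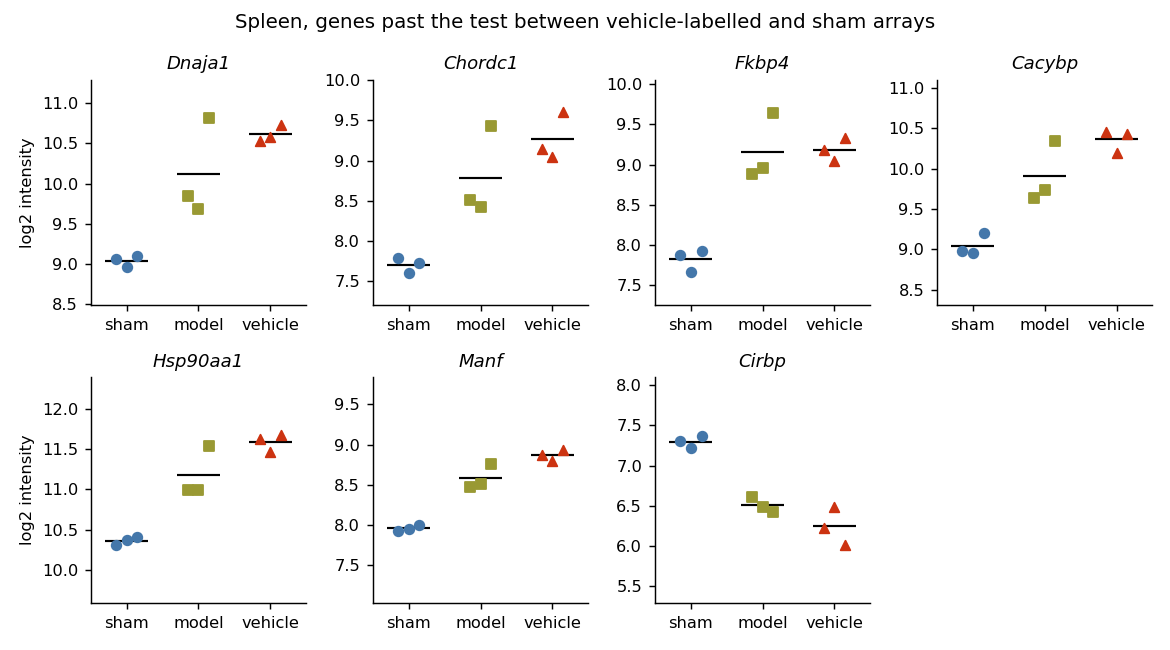
Log2 intensity in each spleen array for the 7 genes that passed the limma test between vehicle-labelled and sham arrays; points are single arrays (3 per group) and horizontal lines are group means, with every panel spanning the same height. The vehicle-labelled points of Dnaja1, Chordc1, Fkbp4, Cacybp, Hsp90aa1 and Manf lie above all sham points and those of Cirbp below, and the 3 model-labelled points also lie clear of sham in each panel.

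The 7 calls rested on small numbers of arrays. Leaving out sham replicate 3, sham replicate 4 or vehicle replicate 2 left 0 genes past the test, with 1214, 787 and 911 genes at an unadjusted p under 0.05, and leaving out sham replicate 5 left 1 gene that was not among the 7. The count became 5 without model replicate 1, 8 without model replicate 2, 13 without model replicate 3, 16 without vehicle replicate 4 and 13 without vehicle replicate 5. A fit of the 6 vehicle-labelled and sham arrays alone passed 8 genes, all higher, among them the 6 rises but not Cirbp, whose adjusted p was 0.057; quantile normalization also lost Cirbp, at 0.087. The differences themselves kept their sign over all alternatives. Hsp90aa1 lay between 1.17 and 1.32 and Cirbp between -1.17 and -0.94. Dnaja1 lay between 1.51 and 1.82 and Chordc1 between 1.39 and 1.80. The limma adjusted p-values of the 7 genes ranged from 0.000364 to 0.239.

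Most cytosolic and mitochondrial chaperones lay on the same side. Of 27 measured members of the Hsp90, Hsp70 and co-chaperone list, 5 passed the test, all higher, against 0.0483% of all genes. In 20 the vehicle-labelled arrays lay entirely above the sham arrays, against 7.49% of all genes (1086). The difference was above 0 in 26 of 27, where 57.4% of all genes were above 0, and the list's median was 0.66. At an unadjusted p under 0.05, 19 were higher (4.79% of all genes) and 0 lower (4.56% of all genes). Without vehicle replicate 2 the median was 0.68, and without vehicle replicate 5 it was 0.55. This list and the others below were drawn up with earlier results of these data known. Their counts beside the shares of all genes are therefore description, not a test. All members are described here, including those outside the rule for named genes.

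Among the co-chaperones of Hsp90, Stip1 (Hop, which bridges Hsp70 and Hsp90) came nearest to the threshold. Its sham values of 8.81, 8.76 and 8.83 and vehicle-labelled values of 10.09, 9.93 and 10.33 were more than 1 log2 unit apart, and the difference of 1.32 ± 0.204 had a limma adjusted p of 0.051. Ptges3 (p23) and St13 differed by 0.65 and 0.66, and Cdc37, which loads kinases onto Hsp90, by 0.19. Hsp90ab1, the constitutive Hsp90, differed by 0.63 ± 0.144 (adjusted p = 0.248, limma). Unc45a, a co-chaperone for myosin folding, was level at 0.01.

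In the Hsp70 branch the nucleotide exchange factor Hsph1 had the largest difference of the list, 1.65 ± 0.313, without passing the test (limma adjusted p = 0.133). Its sham arrays were scattered at 7.94, 8.58 and 7.59 and its vehicle-labelled arrays stood at 9.48, 9.64 and 9.95. Constitutive Hspa8 was very even, with 12.20, 12.17 and 12.19 in sham and 12.58, 12.65 and 12.69 in vehicle-labelled spleens, a difference of 0.45. The Hsp40 genes Dnajb4 and Dnajb1 differed by 0.86 and 0.84, Dnajb6 by 0.13, and the exchange factors Bag3, Hspa4l and Hspa4 by 0.54, 0.42 and 0.08. The mitochondrial chaperonin pair Hspd1 and Hspe1 differed by 0.75 and 0.74, each with no overlap.

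Small heat shock proteins were uneven. Hspb1 (Hsp27) differed by 1.40 ± 0.406 but overlapped, since its sham values of 7.57, 8.13 and 6.45 spread over more than 1 log2 unit and vehicle replicate 4 was at 7.92. Hspb8 differed by 0.40 and Cryab by 0.08. The collagen chaperone Serpinh1 (Hsp47) read 7.28, 7.98 and 7.74 in sham and 8.70, 8.72 and 9.29 in vehicle-labelled arrays, a difference of 1.24 ± 0.219 (adjusted p = 0.118, limma). The transcription factors themselves were near level, with Hsf1 at 0.17 and Hsf2 at -0.19, the only value of the list below 0.

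Chaperones of the ER gave smaller differences. Of 20 measured members of the ER chaperone and unfolded protein response list, only Manf passed the test, as did 0.0483% of all genes. In 14 the vehicle-labelled arrays lay entirely above sham (7.49% of all genes), and 19 differences were above 0 (57.4% of all genes). At an unadjusted p under 0.05, 13 were higher (65%, against 4.79% of all genes) and 0 lower (against 4.56%), and the median was 0.42. Sdf2l1, which holds partly folded proteins in the ER, read 7.43, 7.55 and 7.20 against 8.43, 8.13 and 8.60 (difference 0.99 ± 0.169, limma adjusted p = 0.109). Hspa5 (BiP), the ER's Hsp70, was narrow in both groups at 10.67, 10.73 and 10.71 and at 11.16, 11.32 and 11.42. Its difference was 0.60 ± 0.119 (adjusted p = 0.151, limma).

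The genes Creld2, Herpud1, Pdia4, Hyou1 and Dnajc3 differed by 0.95, 0.67, 0.66, 0.62 and 0.50. For Pdia6, Hsp90b1 (Grp94), Dnajb11, Pdia3 and Canx the differences were 0.49, 0.44, 0.39, 0.30 and 0.29. The transcription factor Xbp1 was at 0.32, the chaperones Dnajb9 and Calr at 0.29 and 0.26, the foldase P4hb at 0.11, and the degradation genes Sel1l and Syvn1 at 0.18 and 0.01. The membrane sensor Atf6 was at -0.24, with all vehicle-labelled arrays below sham, as in 5.69% of all genes (826).

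**Figure D2:**
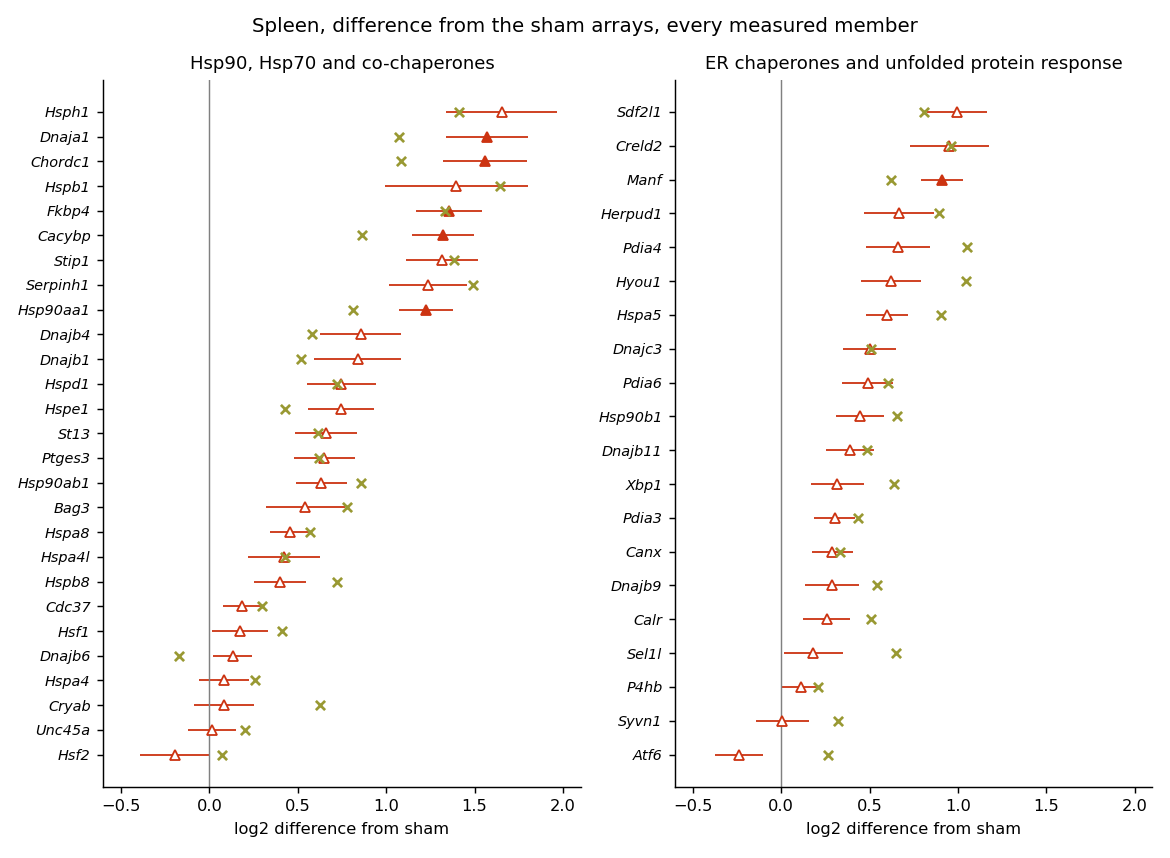
Log2 difference from the 3 sham spleen arrays for every measured member of the Hsp90, Hsp70 and co-chaperone list (27 genes, left) and the ER chaperone and unfolded protein response list (20 genes, right); triangles are vehicle-labelled minus sham with their standard error, filled where the limma adjusted p is under 0.05, and crosses are model-labelled minus sham. All but Hsf2 on the left and Atf6 on the right lie above 0, and 6 triangles are filled.

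Of the 6 cold-inducible RNA-binding genes only Cirbp passed. Rbm3, its close relative, differed by -0.31 ± 0.212 (adjusted p = 0.648, limma) and the splicing factor Srsf5 by -0.57. Hnrnpdl differed by -0.18, whereas Rbm5 and Srsf2 were at 0.05 and 0.01. The list median was -0.25. Body temperature is not given in the labels.

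The model-labelled spleens share the sham arrays with this comparison, so the values are set side by side only. Model-labelled minus sham, 6 genes passed the test (0.0414%). For all 7 genes the model-labelled mean lay between the sham and vehicle-labelled means, but these genes were picked by their vehicle-labelled difference from sham. Of the 27 Hsp90, Hsp70 and co-chaperone genes, 14 were higher in model-labelled than in vehicle-labelled arrays. Stip1 and Serpinh1 passed model-labelled minus sham, at 1.38 and 1.49 (limma adjusted p = 0.042 for each), but not vehicle-labelled minus sham. Fkbp4 differed from sham by 1.33 in the model-labelled spleens and 1.36 in the vehicle-labelled, Hsp90aa1 by 0.81 and 1.23, and Cirbp by -0.79 and -1.05. Tested directly, vehicle-labelled minus model-labelled passed for 0 of 14506 genes (0%) in limma, with a smallest adjusted p of 0.156 and 1872 genes at an unadjusted p under 0.05, 429 higher and 1443 lower. For Fkbp4 that difference was 0.02 ± 0.186, and for Dnaja1, with the widest gap, 0.50 ± 0.232 (adjusted p = 0.395). Leaving out vehicle replicate 5 raised the count from 0 to 317, and leaving out sham replicate 5 raised it to 2.

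The list medians relative to sham were 0.63 in the model-labelled and 0.66 in the vehicle-labelled spleens for Hsp90, Hsp70 and co-chaperones, and 0.61 and 0.42 for the ER list. In the ER list 18 of 20 members were higher in the model-labelled than in the vehicle-labelled arrays, and the smallest adjusted p among them was 0.188 (limma). Model replicate 3 was the highest spleen array of all for Dnaja1, at 10.82, and for Fkbp4, at 9.64.

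Of the 7 genes, 6 also passed in the white blood cells of the same groups. In a separate limma fit of the 9 white blood cell arrays, 229 genes passed as higher in vehicle-labelled than sham arrays (1.58%) and 62 as lower (0.427%), and Manf alone of the 7 was not among them. Hsp90aa1 read 8.54, 8.55 and 8.43 in sham and 9.93, 10.12 and 10.48 in vehicle-labelled white blood cells, a difference of 1.67 ± 0.241. Cirbp differed by -0.61 ± 0.117 there. The test of the difference between tissues did not pass for any of the 7 genes, with adjusted p-values from 0.368 to 0.923 (limma, 27 arrays). The Hsp90 list had 11 members past the test in white blood cells, all higher, and a median of 0.56.

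The other rises with the smallest p in the spleen fell short of the threshold. P4ha1, a collagen prolyl hydroxylase that is also induced by hypoxia, read 7.02, 7.56 and 7.46 in sham and 8.87, 8.44 and 9.37 in vehicle-labelled arrays, a difference of 1.55 ± 0.277 (limma adjusted p = 0.118). With Serpinh1 it makes a pair of collagen-folding genes near the top. Zbtb16 (PLZF), a classical glucocorticoid target, read 5.07, 5.11 and 5.21 against 5.86, 5.71 and 6.09 (difference 0.76 ± 0.14, adjusted p = 0.128, limma). Tmem33, an ER membrane protein, differed by 0.85 ± 0.159.

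Hypoxia targets as a list were mixed. None of the 33 measured members passed, the median was 0.01, and 18 were above 0, as were 57.4% of all genes. At an unadjusted p under 0.05, 4 were higher (12.1%, against 4.79% of all genes) and 3 lower (9.09%, against 4.56%). In 5 the vehicle-labelled arrays lay entirely above sham (7.49% of all genes) and in 3 entirely below (5.69% of all genes). Pdk1, a hypoxia-induced kinase that holds pyruvate back from the mitochondria, lay lower, with 6.74, 6.60 and 6.56 in sham and 6.03, 5.87 and 6.10 in the vehicle-labelled arrays. The difference of -0.63 ± 0.122 had an adjusted p of 0.134 (limma). Vegfa differed by -0.38 and P4ha2 by 0.41; both were chosen after their values were seen.

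Genes induced by glucocorticoids gave no call, and part of them had higher values. Of the 29 measured members, in 9 the vehicle-labelled arrays lay entirely above sham (7.49% of all genes did) and in 0 entirely below (5.69% of all genes). At an unadjusted p under 0.05, 11 members (37.9%) were higher, against 4.79% of all genes, and 1 was lower, against 4.56%, and the median was 0.15. Besides Zbtb16, Cebpd, a transcription factor of acute stress, read 7.34, 7.38 and 7.42 against 7.83, 7.94 and 7.98 (difference 0.54 ± 0.135, limma adjusted p = 0.278). Members outside the naming rule, given after their values were seen, were Tsc22d3 (GILZ) at 0.61, Pdk4 at 0.92 and Per1 at 0.51. In the model-labelled spleens these 3 differed from the same sham arrays by 0.73, 1.18 and 0.52.

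On the lower side, no gene other than Cirbp passed, and the next 11 by p had adjusted values from 0.114 to 0.151. Their identities fall into groups that the plot of single arrays separates. Hnrnpd (AUF1), which binds AU-rich mRNAs, read 9.17, 9.22 and 9.35 in sham and 8.67, 8.54 and 8.46 in vehicle-labelled spleens, a difference of -0.69 ± 0.12. The histone gene H3f3b differed by -0.69 ± 0.13 and Ankrd49 by -0.63 ± 0.114. Cenpu, a centromere protein, read 4.84, 5.27 and 5.24 against 4.02, 4.60 and 4.03, and was lower still in the model-labelled spleens at 3.75, 3.71 and 3.64.

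Several immune genes had lower values in the vehicle-labelled spleens while the model-labelled values stayed near sham. Tnf, the inflammatory cytokine, read 5.40, 5.35 and 4.92 in sham, 5.39, 5.35 and 5.03 in model-labelled and 4.48, 4.32 and 4.45 in vehicle-labelled arrays. Sham and model-labelled values covered the same range, and the vehicle-labelled difference from sham was -0.81 ± 0.154 (limma adjusted p = 0.134). Ccl19, the stromal chemokine that draws T cells and dendritic cells into the white pulp, read 7.50, 7.24 and 6.97 in sham, 7.27, 7.18 and 7.46 in model-labelled and 6.35, 5.77 and 6.59 in vehicle-labelled arrays. Its difference from sham was -1.0 ± 0.201 (adjusted p = 0.151, limma).

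Cd180, a Toll-like receptor homologue of B cells, read 9.22, 9.25 and 8.83 in sham and 8.14, 7.96 and 8.42 in vehicle-labelled arrays, a difference of -0.93 ± 0.166. S100a11, a calcium-binding protein, was at 10.38, 10.86 and 10.20 in sham, 10.31, 10.62 and 10.21 in model-labelled and 8.59, 9.26 and 9.63 in vehicle-labelled spleens. Its difference of -1.32 ± 0.242 was the widest of the 11, and vehicle replicate 2 was the farthest from sham. Pole3, a subunit of DNA polymerase epsilon, and Zc3h4, which ends non-coding transcription, differed from sham by -0.69 and -0.62.

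For 6 of these 11 genes (Cd180, S100a11, Tnf, Pole3, Zc3h4 and Ccl19) the model-labelled mean lay close to sham. For none of these 6 did vehicle-labelled minus model-labelled pass the test, with limma adjusted p-values from 0.166 to 0.181. For Tnf that difference was -0.84 ± 0.154 and for Ccl19 -1.07 ± 0.201.

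**Figure D3:**
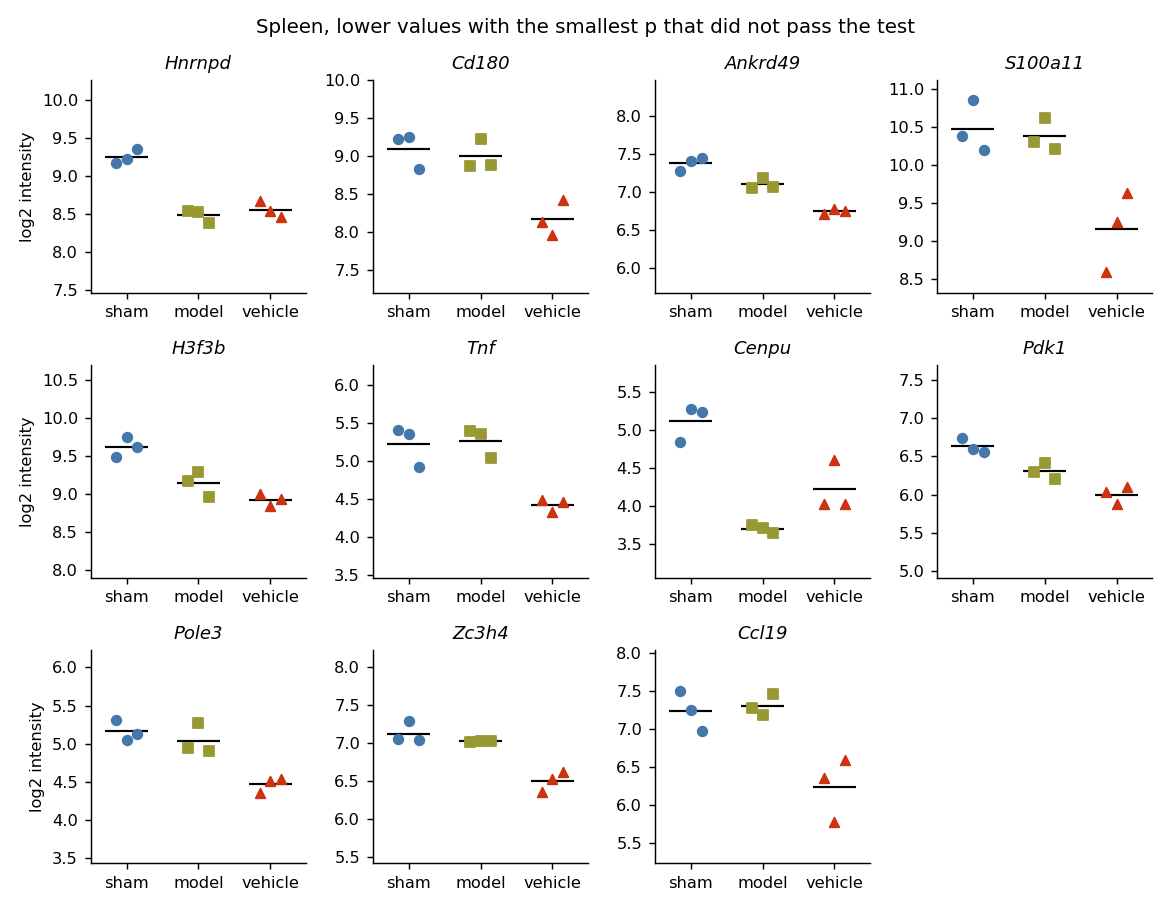
Log2 intensity in each spleen array for the 11 genes with the smallest p among those lower in vehicle-labelled than sham arrays that did not pass the test; points are arrays (3 per group), lines are group means, and panels span equal heights. Model-labelled points overlap sham for Cd180, S100a11, Tnf, Pole3 and Ccl19, lie just under it for Zc3h4, and lie further below it for Hnrnpd, H3f3b, Cenpu, Pdk1 and Ankrd49.

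Interferon-stimulated genes were mostly on the lower side. Of 33 measured members 0 passed (smallest limma adjusted p 0.254), 29 differences were below 0, and in 7 the vehicle-labelled arrays lay entirely below sham (5.69% of all genes did) and in 1 entirely above (7.49% of all genes). At an unadjusted p under 0.05, 9 were lower (27.3%, against 4.56% of all genes) and 1 higher (against 4.79%), and the median was -0.34. Cxcl10, an interferon-induced chemokine for T cells, read 7.81, 8.51 and 7.62 in sham and 7.44, 6.72 and 6.68 in vehicle-labelled arrays, a difference of -1.03 ± 0.242. Its relative Cxcl11 was narrower, at 7.0, 6.93 and 7.07 against 6.25, 6.16 and 6.42 (difference -0.72 ± 0.156, limma adjusted p = 0.206). The exception was Bst2 (tetherin), at 6.84, 6.72 and 6.12 against 7.84, 6.90 and 8.23. Averaged over the list and set against the sham mean, the single arrays were at 0.16, 0.12 and -0.28 in sham and at -0.06, -0.52 and -0.45 in vehicle-labelled spleens, so sham replicate 5 overlapped the vehicle-labelled arrays.

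Lymphocyte genes were lower mainly in vehicle replicate 4. None of 14 B cell genes and none of 21 T cell genes passed, with medians of -0.37 and -0.18. The mean of the B cell genes relative to sham was -0.23, -0.93 and 0.07 in vehicle replicates 2, 4 and 5, and that of the T cell genes -0.12, -0.75 and 0.25. Without vehicle replicate 4 the medians were -0.10 for B cells and 0.12 for T cells, so the T cell median changed sign. Cd37, a B cell tetraspanin, read 10.41, 10.23 and 9.92 in sham and 9.52, 8.92 and 9.73 in vehicle-labelled arrays. Cd24, a surface protein of B cell precursors, read 8.44, 8.44 and 8.46 against 7.83, 7.19 and 7.85 (difference -0.82 ± 0.178, limma adjusted p = 0.206). The part of this array's lymphocyte values in the lower immune genes above was not tested; Tnf was nearly even over the 3 vehicle-labelled arrays, whereas Ccl19 was lowest in replicate 4.

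Macrophage, stromal and antigen-presentation genes gave no call. Differences were above 0 in 1 of 18 monocyte and macrophage genes (median -0.22), 5 of 17 red pulp macrophage genes (median -0.10), 10 of 23 stromal genes (median -0.13) and 6 of 21 antigen-presentation genes (median -0.17). The next genes were named by the smallest p of their lists and do not stand for the other members. Siglec1 (CD169), which marks marginal metallophilic macrophages, read 8.49, 8.06 and 7.56 in sham and 7.11, 7.09 and 7.50 in vehicle-labelled arrays. In the model-labelled spleens it was at 8.61, 7.99 and 8.90, and vehicle-labelled minus model-labelled was -1.27 ± 0.253 (limma adjusted p = 0.166). Il7, a stromal survival factor for lymphocytes, read 5.92, 5.86 and 5.68 against 4.87, 4.87 and 5.45. RT1-DMb, which helps load peptide onto class II molecules, was at 8.99, 9.01 and 8.93 against 8.45, 8.31 and 8.55 (difference -0.54 ± 0.122, adjusted p = 0.245, limma). For these 3 genes no vehicle-labelled array reached the sham range. Vehicle-labelled arrays lay entirely below sham in 3 monocyte and macrophage, 1 red pulp macrophage, 4 stromal and 2 antigen-presentation genes (5.69% of all genes). They lay entirely above it in 1 red pulp macrophage gene (7.49% of all genes). At an unadjusted p under 0.05, 5 stromal genes were lower (21.7%, against 4.56% of all genes) and 0 higher (against 4.79%). The other lists here had 1 lower each, and red pulp macrophages 2 higher.

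**Figure D4:**
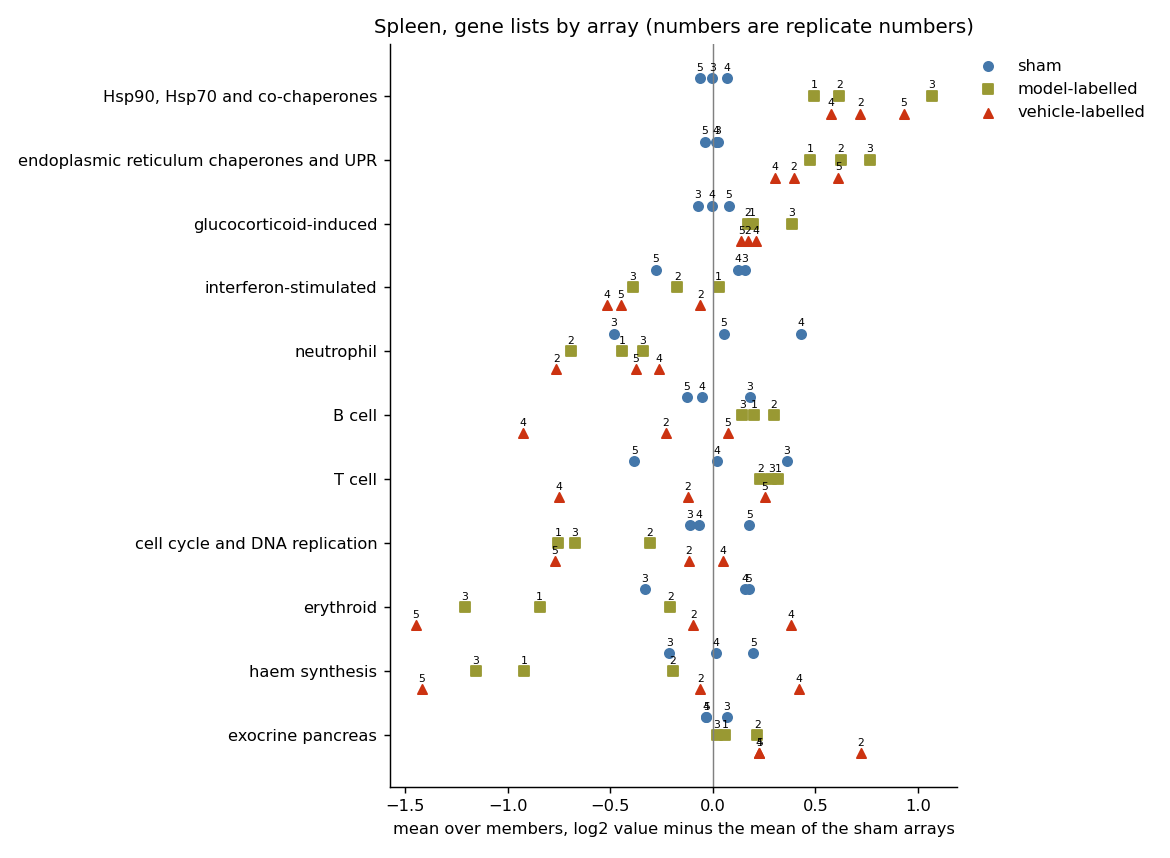
Mean over the measured members of 11 gene lists in each spleen array, as log2 value minus the mean of the 3 sham arrays; every point is an array, numbered by its replicate, with no error bar. Both operated groups lie right of all sham arrays for the 2 chaperone lists, while the erythroid, haem synthesis and cell cycle lists are lowest in vehicle replicate 5 and the B and T cell lists in vehicle replicate 4.

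Red cell precursor genes gave no call and varied widely among the operated rats. None of 22 erythroid genes passed, 20 differences were below 0, none had separate groups, and the median was -0.35. The mean of the list relative to sham was -0.33, 0.16 and 0.18 in the sham arrays and -0.10, 0.38 and -1.45 in the vehicle-labelled arrays, so among these 6 arrays only vehicle replicate 5 was far below the rest. Without that array the median was 0.05. The model-labelled arrays, set against the same sham arrays, were at -0.85, -0.21 and -1.21, with a median difference of -0.79 over the list, so model replicates 1 and 3 were low as well. Alas2, the first enzyme of haem synthesis in red cells, read 10.30, 11.19 and 11.08 in sham and 10.18, 10.98 and 9.44 in vehicle-labelled spleens. The 14 haem synthesis genes followed, at -0.06, 0.42 and -1.42 in the vehicle-labelled arrays.

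Cell cycle genes were lowest in the same vehicle-labelled array. None of 45 passed, 43 were below 0 and 2 above 0, where 57.4% of all genes were above 0, and the median was -0.27. At an unadjusted p under 0.05, 6 were lower (13.3%, against 4.56% of all genes) and 0 higher (against 4.79%). In 4 the vehicle-labelled arrays lay entirely below sham (5.69% of all genes did) and in 0 entirely above (7.49% of all genes). Vehicle replicate 5 was at -0.77 and the others at -0.12 and 0.05, and without replicate 5 the median was -0.04. Model-labelled arrays were at -0.75, -0.31 and -0.67, so model replicates 1 and 3 were about as low as vehicle replicate 5. Cdk2, which drives entry into S phase, was at 6.91, 7.16 and 7.04 in sham and 6.75, 6.51 and 6.58 in vehicle-labelled arrays, with no overlap.

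Neutrophil genes were on the lower side, with sham replicate 3 overlapping. Of 21 measured members 0 passed, 17 were below 0, and 7 (33.3%) were lower at an unadjusted p under 0.05 (4.56% of all genes), with a median of -0.54. Cxcr2, the neutrophil chemokine receptor, read 7.78, 8.67 and 7.99 in sham and 7.04, 7.19 and 7.32 in vehicle-labelled arrays (difference -0.96 ± 0.265, limma adjusted p = 0.312). Mmp8, the neutrophil collagenase, read 8.43, 9.48 and 8.77 against 7.78, 8.11 and 7.97. Both genes had separate groups. Over the list, vehicle-labelled arrays lay entirely below sham in 4 members (5.69% of all genes) and entirely above in 1 (7.49% of all genes). The list mean was -0.48, 0.43 and 0.05 in the sham arrays and -0.76, -0.26 and -0.37 in the vehicle-labelled arrays. Model-labelled arrays were at -0.44, -0.69 and -0.34, with a median difference from the same sham arrays of -0.51.

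Most red cell and neutrophil genes had higher values than sham in the vehicle-labelled white blood cells. In the erythroid list 19 of 22 differences were above 0 there and 20 of 22 below 0 in spleen, where the median turned to 0.05 without vehicle replicate 5; in the neutrophil list 14 of 21 were above 0 there and 17 of 21 below 0 in spleen. The contrast of the spleen difference with the white blood cell difference passed for 112 genes (0.772%), 7 with the higher difference in spleen and 105 with the lower (0.724%). Both tissues come from the same rats, per the titles, and with the rat as a random block 151 genes passed, 18 higher and 133 lower. Of the erythroid list 13 of 22 were among the 105, and of the neutrophil list 5 of 21. The erythroid median in white blood cells was 2.11 and the neutrophil median 0.72. Alas2 read 8.50, 8.45 and 9.10 in sham and 11.62, 11.47 and 10.95 in vehicle-labelled white blood cells, and its spleen difference minus its white blood cell difference was -3.32 ± 0.434 (adjusted p = 0.000182, limma). Mmp8 differed by 2.36 in white blood cells and -0.94 in spleen, and Cxcr2 by 0.92 and -0.96. Leaving out spleen sham replicate 4 reduced the 112 genes to 68, and leaving out spleen vehicle replicate 4 raised them to 174.

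**Figure D5:**
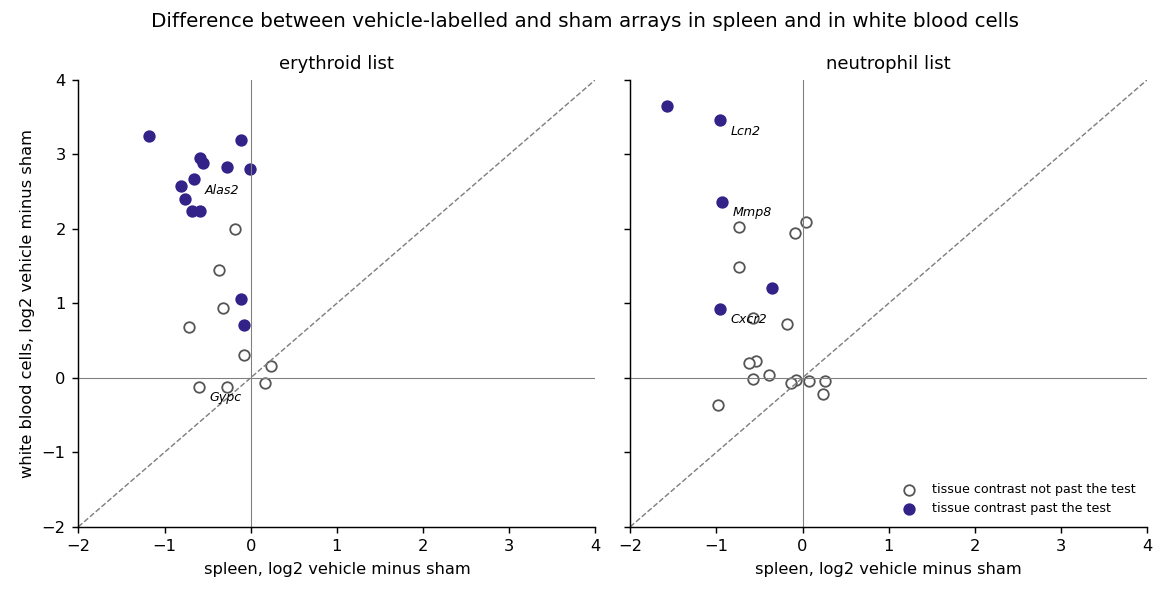
Vehicle-labelled minus sham on the log2 scale in spleen (horizontal) and in white blood cells (vertical) for the 22 erythroid genes and the 21 neutrophil genes measured; filled points passed the limma test of the difference between tissues, and the dashed line marks equal differences. The filled points, 13 erythroid and 5 neutrophil genes, all lie above the line.

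Cell cycle and stromal genes gave single entries in that contrast. Rrm2, the ribonucleotide reductase subunit, differed by 1.04 in white blood cells and by -0.53 in spleen (tissue contrast adjusted p = 0.00678, limma). Il7 differed by 0.63 and -0.76 (adjusted p = 0.00856, limma), and Cenpu by 0.37 and -0.90 (adjusted p = 0.00341, limma). For all 3 the spleen difference alone did not pass.

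Markers of the pancreas, which touches the spleen, had higher values in the vehicle-labelled arrays. Of 29 exocrine pancreas genes 0 passed (smallest limma adjusted p 0.204), but all 29 differences were above 0, as were 57.4% of all genes. In 9 the vehicle-labelled arrays lay entirely above sham (7.49% of all genes), and 12 (41.4%) were higher at an unadjusted p under 0.05 (4.79% of all genes). The median was 0.34. Most of these genes read low in every spleen. The 10th percentile over genes was 3.17, 3.11 and 2.97 in vehicle replicates 2, 4 and 5, against 2.95 to 3.0 in sham. Over genes above the 40th percentile of mean value the median difference was -0.03, against 0.04 over all genes. The shares of all genes are therefore not matched for intensity, and the part of low intensity in the pancreas values was not tested. Amy2a3, pancreatic amylase, was singled out after its values were seen: it read 2.91, 2.90 and 2.92 in sham, 2.94, 3.06 and 2.74 in model-labelled and 6.67, 3.12 and 4.62 in vehicle-labelled spleens. The list mean was 0.72 in vehicle replicate 2 and 0.22 and 0.23 in replicates 4 and 5, against -0.03 to 0.07 in sham. Ctrl, chymotrypsin-like protease, was more even, at 4.99, 5.01 and 4.68 against 5.72, 5.39 and 5.48.

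Of 14 measured adipose genes 0 were called, 10 differences were above 0 (57.4% of all genes) and 4 below, and the median was 0.32. In 3 the vehicle-labelled arrays lay entirely above sham (7.49% of all genes) and in 0 entirely below (5.69%). Fabp4 and Pparg were among the 4 below 0, at -0.36 and -0.35. Car3, abundant in fat, read 3.80, 3.84 and 5.93 in sham and 6.26, 6.38 and 5.68 in vehicle-labelled arrays, so sham replicate 5 overlapped. The part of neighbouring tissue in the chaperone values was not tested; without vehicle replicate 2, where pancreatic genes were highest, the Hsp90aa1 difference was 1.21 and that of Manf 0.91.

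The remaining lists gave no call. Only 3 of the 47 lists (Hsp90 system, ER chaperones and cold-inducible genes) held a called gene, and in the other 44 the medians ran from -0.54 (neutrophil) to 0.34 (exocrine pancreas), 16 above 0 and 28 at or below. The 40 proteasome and chaperonin genes had a median of 0.02, although the cytosolic chaperonin subunits Tcp1 and Cct3 differed by 0.55 and 0.47 with separate groups. The 24 antioxidant genes under Nrf2 had a median of -0.12, while Sod1, which removes superoxide, read 9.41, 9.19 and 9.49 in sham and 10.25, 9.86 and 10.16 in vehicle-labelled arrays (difference 0.73 ± 0.152, limma adjusted p = 0.186). In white blood cells Sod1 passed, with 0.78. Integrated stress response genes were at a median of -0.02, with 8 of 21 differences above 0 and 13 below. The 2 members with the smallest p went opposite ways, Vldlr at -0.41 and Ddit3 (CHOP) at 0.51.

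Among metabolic genes, the cholesterol synthesis enzymes Nsdhl and Sc5d differed by -0.66 and -0.63 and the fatty acid importer Cpt1a by -0.56, all without overlap and without a call. Pdk4, which spares glucose, read 5.19, 5.13 and 5.46 in sham and 5.98, 5.96 and 6.60 in vehicle-labelled arrays. Rgs1, which damps chemokine receptor signals in lymphocytes, had a difference of 1.38 ± 0.301, from 6.65, 7.36 and 6.83 to 8.66, 7.72 and 8.61 (adjusted p = 0.208, limma). Mt2A, a metal-binding stress protein, overlapped widely at 9.98, 9.11 and 11.17 against 11.11, 11.58 and 10.38.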

How the data were processed

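The deposited values are log2 intensities per probe, which the authors made with RMA (background correction, normalization between arrays and probe summary) per the submitters' processing notes, in a version not given in the sources used here; the log2 scale was read from their range, 1.53 to 13.49. Whether tissues were normalized together, and the genome build, are not given there. Of 27596 probes, 15310 carried 1 gene symbol; 323 with several and 11963 without were left out. Entrez identifiers matched a RefSeq gene table for 15279 probes and changed 0 symbols. Of 527 genes with several probes the brightest was kept. No array is identical to another.

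Groups and replicate numbers come from the titles. limma 3.58.1 in R 4.3.3 (lmFit, eBayes, 2-sided) was fitted to the 9 spleen arrays, with a mean per group, 6 residual degrees of freedom and Benjamini-Hochberg adjustment over 14506 genes. The tissue contrast used all 27 arrays. The fit was tested on simulated data. With 3 arrays a group, from rats that the protocol counts separately, p-values measure the spread between these rats only; 3 arrays limit the precision, and no batch is given.

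Named genes are the 12 largest called rises and falls, filled by smallest p; up to 6 called members of each list, or the 2 with the smallest p; and 5 genes each way in the tissue contrast. Predicted genes and olfactory receptors are not named. Members and the 47 lists (995 of 1127 symbols measured) were chosen with earlier results of these data known. Alternatives covered arrays in the fit, normalization, filters, probe choice, priors, weights, a replicate block, thresholds and each array left out; leaving out model replicate 2 and vehicle replicate 2 together was added after seeing the data. Numbers 4 and 5 occur in both groups, and the main fit did not pair arrays by number. Residuals of same-numbered sham and vehicle-labelled arrays correlated at 0.02 and -0.17. Those of model replicate 2 and vehicle replicate 2 correlated at 0.26, and those of sham replicate 3 and model replicate 3 at 0.01. With 3 arrays a group these correlations cannot settle whether equal numbers mark a shared block.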

Additional observations from a re-analysis of the deposited data

Results flagged for a closer look

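For the 10 named genes of the tissue contrast the vehicle-labelled minus sham difference in spleen departed from that in white blood cells, by the limma test of the difference between tissues. The spleen difference was the lower for the lipocalin Lcn2 (-4.41), the lymphocyte surface peptide Cd52 (-3.82), the haem enzyme Alas2 (-3.32), the neutrophil granule protein Pglyrp1 (-3.27) and the secreted glycoprotein Creg1 (-2.99), each with an adjusted p of 0.000182. In spleen itself these genes did not pass the test, with differences of -0.96, -0.87, -0.66, -0.82 and -0.17. In white blood cells they rose by 3.45, 2.94, 2.66, 2.44 and 2.82.

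The spleen difference was the higher for 4933412E24Rikl (0.82), Kir3dl1 (0.77), Cth, an enzyme of cysteine synthesis (0.77), Vom1r32 (0.74) and Abhd14a (0.66), with adjusted p-values from 0.0142 to 0.0475. Over the spleen arrays these 5 genes read between 2.44 and 5.32. In white blood cells only Kir3dl1 passed, with a difference of -0.83.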

How the results depend on the processing

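No named gene reversed. The 7 calls became 29 in a fit of all 27 arrays, 4 after quantile normalization, 4 after median centring, 0 over all 27596 probes (2603 at an unadjusted p under 0.05), 0 with replicate number as a fixed replicate block (1208 unadjusted), and 0 without model 2 and vehicle 2 together (939 unadjusted); they ranged from 0 to 16 when single arrays were left out. The 7 genes were all kept in the 27-array fit, and 4 of them after quantile normalization, without Cirbp, Dnaja1 and Chordc1. A fit of only the 6 vehicle-labelled and sham arrays called 8 genes, 6 of them among the 7, and lost Cirbp. The 0 calls between vehicle-labelled and model-labelled spleens became 107 in the 27-array fit and ranged from 0 to 317 when single arrays were left out. The 112 genes of the tissue contrast became 151 with the rat as a random block and ranged from 68 to 174 with single spleen arrays left out. The causes were not tested. The number of arrays, 3 per group, limits what can be called.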

Other observations

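Some genes split the 9 spleen arrays across groups. Ifit1, an interferon-induced antiviral gene, had the widest gap of any gene, 4.86 log2 units: it read 3.79, 9.15 and 9.06 in sham, 3.74, 9.11 and 3.34 in model-labelled and 8.73, 9.80 and 3.87 in vehicle-labelled spleens. In white blood cells the values were 3.30, 6.07 and 6.26, then 3.34, 7.33 and 3.50, then 9.77, 10.11 and 3.13. The 4 rats that were low in spleen were thus the 4 that were low in white blood cells, and the 5 high rats were high in both. In brain those 5 lay between 3.66 and 5.03 and the other 4 between 2.81 and 3.44.

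Ly6al read 7.51 in the spleen of vehicle replicate 2 and 2.94 to 3.57 in the other spleens; it was also highest in that rat's white blood cells, at 3.82. Slpi, a secreted protease inhibitor, was at 7.17 in sham replicate 3 and between 9.43 and 10.37 in all other spleens. Casp1, the inflammasome protease, was at 9.63 and 9.58 in vehicle replicates 2 and 5 and at 8.84 to 8.97 in the other 7 spleens.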
